A study of Mus musculus with 2 samples.

Results

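The 10 genes described here, Pdgfra, Pdgfrb, Thy1, Tcf21, Ly6a, Ly6c1, Cd34, Pi16, Fap and Clec3b, are surface proteins, secreted proteins and a transcription factor used to recognise cardiac fibroblasts before or outside activation. They were chosen by name, and all 10 were found among the 15181 distinct genes of the deposited tables. The data are 2 libraries of droplet single-cell RNA sequencing, 1 for each genotype, made from the interstitial cells of mouse ventricles after myocardial infarction (MI). The control library came from PostnMCM mice, in which the Postn locus drives a Cre recombinase that tamoxifen switches on in fibroblasts turning into myofibroblasts. The other library came from Yapfl/fl;Wwtr1fl/+;PostnMCM mice, in which Yap1 was floxed on both alleles and Wwtr1 on 1. Per the study, both genotypes also carried a Cre-dependent eGFP reporter at Rosa26, and adult mice were 8 to 10 weeks old at MI. Both received chow with 0.4 g/kg tamoxifen citrate from MI onwards, and the labels place collection 6 days after injury. The number of hearts behind each library was not given in the sources used here.

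Resting cardiac fibroblasts descend largely from the epicardium, carry the receptor PDGFRα and maintain the collagen matrix between cardiomyocytes. After infarction they divide, enter the injured zone and turn into Postn-expressing myofibroblasts, losing part of their resting expression as they do so. YAP and TAZ, encoded by Yap1 and Wwtr1, are the transcriptional co-activators of the Hippo pathway and act through TEAD factors in this activation. The comparison asks whether the resting genes stood higher or lower where Yap1 and Wwtr1 were targeted.

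With 1 library for each genotype there was no replicate and no test, and every difference below is between 2 libraries. Each value is given as the share of cells with a corrected count above 0, in the control library and then in the library labelled depleted, and as the authors' deposited average log2 fold change. For that fold change, 1 was added to each library's mean corrected value before the log2 was taken, and the control library was subtracted, so a gene below 0 had the lower mean where the label reads depleted. A value of at least 0.25 in size, the limit the authors used for their cluster tables, is called lower or higher. The tables state neither the depth nor the number of cells behind a share in a subcluster, and no interval is given. The shares of the library labelled depleted take only 11 distinct values in subcluster 4, in steps of 10 percentage points, and 22 in subcluster 5, against 146 in the control library of subcluster 0. A share takes few distinct values only where it is taken over few cells, so those of subclusters 4 and 5 rest on few cells. By mean, the targeted transcript Yap1 was lower in no fibroblast subcluster, with values of 0.07, 0.31, 0.04 and 0.26 in subclusters 0, 3, 4 and 5. By share it was lower in subcluster 4 alone: cells with a Yap1 count went from 46.2% to 56.2%, 23.3% to 43.5%, 57.5% to 40% and 30.4% to 47.6%. Wwtr1, floxed on 1 allele, was at 0.15, -0.30, -0.21 and -0.16 in subclusters 0, 3, 4 and 5, with 81.4% and 90.6%, 93.3% and 91.3%, 80% and 60%, and 100% and 85.7% of cells. The targeted transcripts thus did not go one way, and the second library is named here by its label. Separately, the study reported less nuclear Yap and Wwtr1 protein in eGFP-positive cells of this genotype, which transcript counts over all fibroblasts do not measure. These libraries read the 3′ end of a transcript, where a count need not drop when a floxed exon upstream is lost, so the counts are a weak check of the label.

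The 10 genes were spread unevenly over the subclusters, and 6 of them were most frequent in subcluster 5 in both libraries. Cells with a Tcf21 count made up 2.1%, 6.7%, 35% and 43.5% of the control library in subclusters 0, 3, 4 and 5. For Pdgfrb the control shares were 31.7%, 20%, 52.5% and 78.3%, for Ly6c1 8.3%, 6.7%, 0% and 39.1%, and for Fap 2.1%, 6.7%, 5% and 26.1%. Ly6a, at 54.5%, 36.7%, 22.5% and 73.9%, and Pi16, at 37.9%, 26.7%, 15% and 65.2%, also peaked in subcluster 5. With no replicates the order of the subclusters has no error. Others had another order in the control library: Cd34 was lowest in subcluster 5, at 82.6% against 99.3% in subcluster 0, Clec3b was highest in subcluster 0, at 95.2% against 73.9%, and Thy1 was highest in subcluster 3, at 56.7% against 43.5%. Of 20 other resting fibroblast genes, 13 had their highest control share there and 10 their highest share in the library labelled depleted, while 2 and 4 had their lowest. Dpp4, a surface peptidase, was among the lowest, at 8.7% of control cells against 17.5% to 26.7% elsewhere. Among the highest was Dpt, in 95.7% of control cells of subcluster 5 against 5.5% to 13.3% elsewhere. Meox1, also on that list, was in 43.5% against 0%. It was found only where Postn was most frequent, so it does not single out a resting state here. All 11 epicardial genes had their lowest control share there, and 10 of the 11 their lowest share in the library labelled depleted, Tbx18 being the exception, at 71.4%. Wt1, a transcription factor of the epicardium, was found in 92.5% to 97.2% of control cells of subclusters 0, 3 and 4 and in 73.9% of subcluster 5. Upk3b, a mesothelial membrane protein, was found in 93.3% to 95% and in 21.7%. Krt19, an epithelial keratin, was in 94.5%, 76.7%, 37.5% and 34.8% of control cells in subclusters 0, 3, 4 and 5. Of 18 genes of activated fibroblasts, 8 had their highest control share in subcluster 5 and 7 their highest share in the library labelled depleted, while 0 and 1 had their lowest. Acta2, a smooth muscle actin, was not among the 8, at 47.8% of control cells against 53.3% in subcluster 3. Postn, a matrix protein of myofibroblasts, was in 87% of control cells of subcluster 5 against 10% to 40% elsewhere. Col8a1, a short-chain collagen, was in 52.2% against 0% to 7.5%. No subcluster therefore shows the resting genes alone. In subcluster 5 each of the 10 genes was in at least 23.8% of cells of both libraries, beside Postn. Subclusters 0, 3 and 4 combine Cd34 and Pdgfra with epicardial genes. The collagen gene Col1a1 was in 100% of cells of every subcluster in both libraries.

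**Figure D1:**
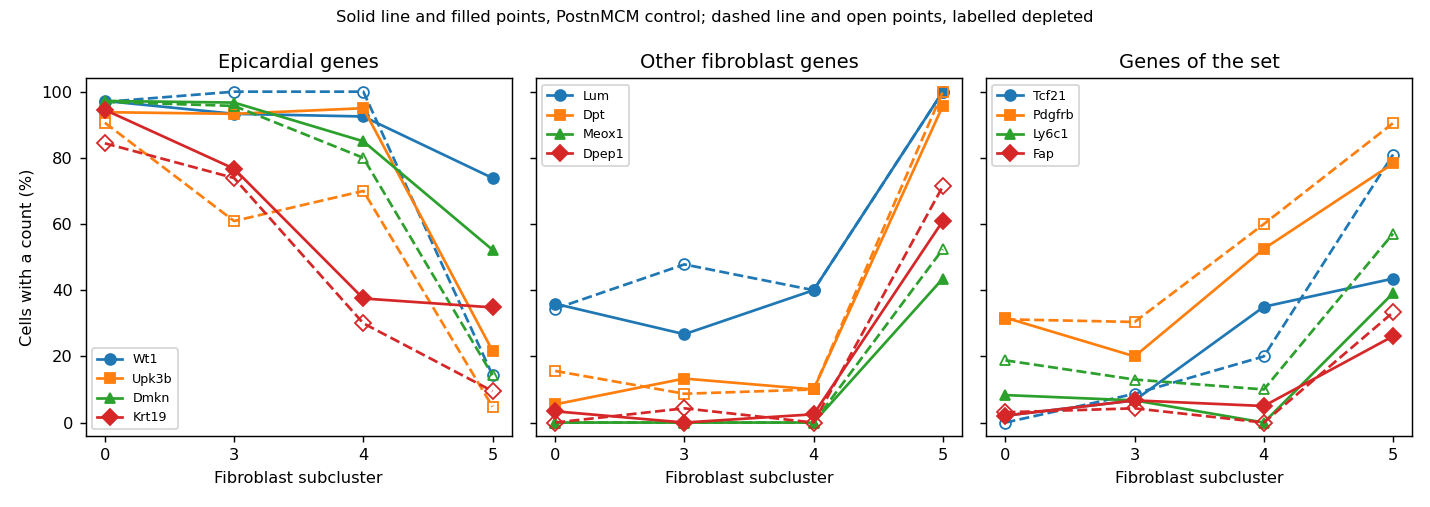
Share of cells with a count (vertical axis, percent) in fibroblast subclusters 0, 3, 4 and 5 (horizontal axis) for 4 epicardial genes, 4 other fibroblast genes and 4 of the 10 genes. Filled points and solid lines are the control library, open points and dashed lines the library labelled depleted; Lum, Dpt, Tcf21 and Pdgfrb peak in subcluster 5, where Wt1 is at 73.9% and 14.3%.

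Over the 10 genes, subcluster 5 stood apart by deposited fold change. In it 6 genes were lower and 1 was higher, with a median of -0.46, where all 15059 genes of the table had a median of 0. The 6 lower genes were Thy1, Ly6a, Ly6c1, Cd34, Pi16 and Clec3b, and the gene that was higher was Tcf21. Among all genes of subcluster 5, 14.7% were lower and 12.6% higher by the same limit, and among those with a mean share of at least 10%, 20.5% were lower and 17.3% higher. All 10 genes passed that minimum in subcluster 5. The direction of the median and the balance of counts rest on the mean level and not on the share of cells. By the log2 ratio of shares the median was 0.051, with 2 genes lower and 3 higher. Without Ly6a and Ly6c1 the median fold change was -0.27.

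In the subclusters with frequent epicardial transcripts, more of the 10 genes were higher than lower. In subcluster 0, 4 genes were higher (Pdgfra, Thy1, Ly6a and Ly6c1) and 1 lower, with a median of 0.09. All genes of that table were higher in 7.61% and lower in 6.37%, or in 10.5% and 8.57% of genes with a mean share of at least 10%, a minimum that 8 of the 10 passed. In subcluster 3, 3 genes were higher (Pdgfra, Pdgfrb and Ly6a) and 1 lower, with a median of 0.01, against 9.13% and 9.68% of all genes and 12.2% and 13.1% of the better detected ones, which included 7 of the 10. In subcluster 4, 3 genes were higher (Pdgfra, Pdgfrb and Thy1) and 1 lower, with a median of 0.13. There 17% of all genes were higher and 13.3% lower, or 22.8% and 17.3% of the better detected ones, which included 8 of the 10, so these counts lie near the background. In each of these 3 subclusters the lower gene was Clec3b. Without Ly6a and Ly6c1 the medians of subclusters 0 and 3 fell on the other side of 0, at -0.0073 and -0.026.

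**Figure D2:**
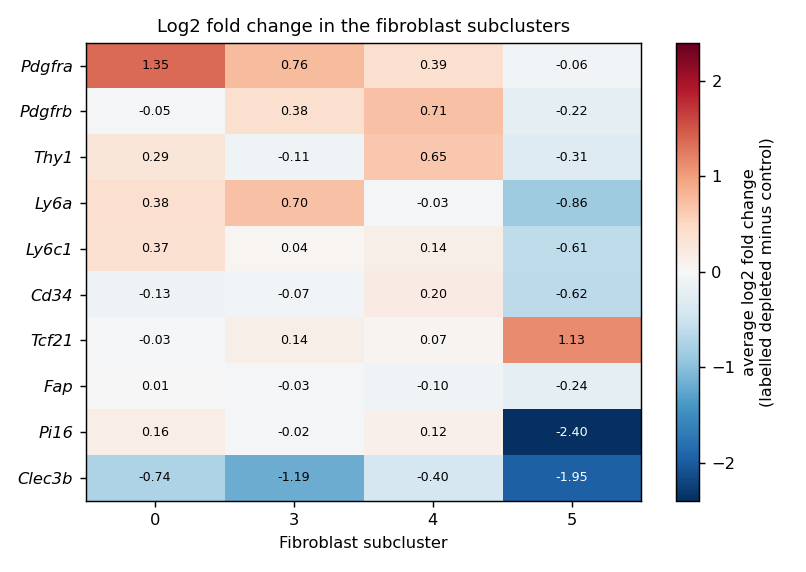
Deposited average log2 fold change, library labelled depleted minus control, for each of the 10 genes (rows) in fibroblast subclusters 0, 3, 4 and 5 (columns); red is higher and blue lower in the library labelled depleted. Clec3b is below 0 in all 4 columns, and the deepest values, -2.40 for Pi16 and -1.95 for Clec3b, stand in subcluster 5.

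Pdgfra encodes the receptor for PDGF ligands that defines the cardiac fibroblast lineage (ENSMUSG00000029231, GRCm39 chr5:75311994-75358876, plus strand). It was found in 38.6% of control cells and 71.9% of cells labelled depleted in subcluster 0, with a log2 fold change of 1.35. In subcluster 3 the shares were 66.7% and 87%, at 0.76. In these subclusters the mean and the share were both higher in the library labelled depleted. In subcluster 4 the shares were 85% and 80% while the log2 fold change was 0.39, so the measures pointed opposite ways. In subcluster 5 they were 87% and 81%, at -0.06. In the fibroblast cluster as a whole, cluster 5 of all interstitial cells, 47.7% and 84% of cells had a Pdgfra count, at 1.12. Cluster 5 pools all fibroblast subclusters, and the study describes several of them as coming mainly from one genotype. Its values, for Pdgfra and for every gene below, therefore compare unlike mixes of subclusters, and the mix and a difference within subclusters cannot be told apart there. Cluster 5 was also normalized separately from its subclusters, so its shares and levels are not comparable with theirs. Over the subclusters the control shares ran from 38.6% to 87% and those of the library labelled depleted from 71.9% to 87%.

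Pdgfrb encodes the sister receptor, which in the heart also marks pericytes and other mural cells (ENSMUSG00000024620, GRCm39 chr18:61178212-61218133, plus strand). Its shares were 31.7% and 31.2% in subcluster 0, at a log2 fold change of -0.05, and 20% and 30.4% in subcluster 3, at 0.38. In subcluster 4 they were 52.5% and 60%, at 0.71, and in subcluster 5 they were 78.3% and 90.5%, at -0.22. Cluster 5 as a whole had 24.8% and 44.9%, at 0.31. Pdgfrb was thus higher in subclusters 3 and 4, and in subcluster 5 more cells carried a count at a mean level that was not higher. Of the mural markers, Rgs5 was in 0% to 8.7% of cells, Kcnj8 in 15.9% and 37.5% of subcluster 0, and Notch3 in 13% and 47.6% of subcluster 5. The summed shares of the 7 mural markers measured went from 36.6% to 56.2%, 30% to 38.9%, 40% to 60% and 86.9% to 71.5% in subclusters 0, 3, 4 and 5, and their part in the Pdgfrb values was not tested.

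Of 6 PDGF ligands and related genes, 1 was lower in subcluster 0, none passed the limit in subcluster 3, 1 was lower and 1 higher in subcluster 4, and 4 were lower in subcluster 5, where their median was -0.36. Over all genes 6.37%, 9.68%, 13.3% and 14.7% were lower and 7.61%, 9.13%, 17% and 12.6% higher in subclusters 0, 3, 4 and 5. Pdgfa, a ligand of PDGFRα, was at 0.04, -0.06, 0.27 and -0.70 in subclusters 0, 3, 4 and 5. Plat, the tissue plasminogen activator that cleaves the latent ligand PDGF-CC, was at -0.33, 0.20, 0.23 and -0.34. Pdgfrl, a receptor-like protein, was found in 87% and 95.2% of cells of subcluster 5, at -0.37, and in 7.6% to 21.7% elsewhere. None of the 6 genes was listed in any of the 18 clusters of all interstitial cells, where 5.09% of all gene and cluster pairs were listed.

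Thy1 encodes a glycosyl-phosphatidylinositol-anchored surface glycoprotein of fibroblasts that T cells also carry in the mouse (ENSMUSG00000032011, GRCm39 chr9:43954332-43959880, plus strand). Its shares were 46.2% and 56.2% in subcluster 0, at a log2 fold change of 0.29, and 56.7% and 39.1% in subcluster 3, at -0.11. They were 20% and 60% in subcluster 4, at 0.65, and 43.5% and 23.8% in subcluster 5, at -0.31. Thy1 therefore stood higher in subclusters 0 and 4 and lower in subcluster 5. T cell transcripts moved between the libraries as well. The summed shares of Cd3d, Cd3e and Cd3g went from 24.1% to 31.2% in subcluster 0, 23.4% to 73.8% in subcluster 3, 22.5% to 70% in subcluster 4 and 13% to 71.5% in subcluster 5. They were higher in the library labelled depleted in all 4 subclusters, where Thy1 had both directions, and their part in the Thy1 values was not tested.

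Ly6a encodes the stem cell antigen Sca1, a surface protein of resting and adventitial fibroblasts, endothelial cells and many lymphocytes (ENSMUSG00000075602, GRCm39 chr15:74863840-74869880, minus strand). Its shares were 54.5% and 62.5% in subcluster 0, at a log2 fold change of 0.38, 36.7% and 56.5% in subcluster 3, at 0.70, and 22.5% and 20% in subcluster 4, at -0.03. In subcluster 5 they were 73.9% and 81% at -0.86, so slightly more cells carried a count at a lower mean. Cluster 5 as a whole had 31.9% and 46.5%, at 0.45. Of the endothelial markers, Pecam1 was in 0% to 9.5% of cells and Cdh5 in 0% to 7.5%, while Fabp4 was in 19% to 78.1% and Esam in 0% to 78.1%. The summed shares of the 9 endothelial markers measured went from 237% to 244%, 210% to 222%, 235% to 190% and 143% to 105% in subclusters 0, 3, 4 and 5, and their part in the Ly6a values was not tested.

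Ly6c1, an Ly6 surface protein known from endothelial cells and fibroblasts, lies in the same gene cluster (ENSMUSG00000079018, GRCm39 chr15:74915847-74920686, minus strand). It was found in 8.3% and 18.8% of cells in subcluster 0, at a log2 fold change of 0.37, in 6.7% and 13% in subcluster 3, at 0.04, and in 0% and 10% in subcluster 4, at 0.14. In subcluster 5 the shares were 39.1% and 57.1%, at -0.61. As with Ly6a, more cells of subcluster 5 carried a count in the library labelled depleted while the mean was lower. The reads of Ly6c1 are uncertain, because its transcript is 96.6% identical to that of the monocyte gene Ly6c2, and 294 of the last 300 bases, the end that these libraries read, are the same (98%). Ly6c2 was in 18.6% and 3.1% of cells in subcluster 0, at -0.72, and in 8.7% and 4.8% in subcluster 5, at -0.05. The last 300 bases of Ly6a and Ly6c1 are 50.6% identical. Ly6e, a widely expressed relative, was found in 95.7% to 100% of cells and stood at 0.71, 0.88, 0.92 and 0.29 in subclusters 0, 3, 4 and 5.

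Cd34, a sialomucin of fibroblasts, endothelium and blood progenitors, was near saturation (ENSMUSG00000016494, GRCm39 chr1:194621029-194647172, plus strand). It was found in 99.3% and 100% of cells in subcluster 0, 93.3% and 95.7% in subcluster 3, 85% and 90% in subcluster 4 and 82.6% and 81% in subcluster 5. The log2 fold changes were -0.13, -0.07, 0.20 and -0.62. Shares this near 100% leave little room for a difference, and in subcluster 5 the mean was lower at nearly equal shares. No cluster of all interstitial cells listed Cd34.

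Tcf21, the basic helix-loop-helix factor that specifies cardiac fibroblasts from the epicardium, was the gene of the set that stood higher in subcluster 5 (ENSMUSG00000045680, GRCm39 chr10:22692803-22696073, minus strand). There it was found in 43.5% of control cells and 81% of cells labelled depleted, at a log2 fold change of 1.13. Elsewhere it was rarer: 2.1% and 0% in subcluster 0, at -0.03, 6.7% and 8.7% in subcluster 3, at 0.14, and 35% and 20% in subcluster 4, at 0.07. In the same subcluster 5, 4 of 11 epicardial genes were lower and 1 higher, where 14.7% and 12.6% of all genes were. Wt1 was in 73.9% and 14.3% of cells, at -1.08, and Dmkn, a secreted epithelial protein, in 52.2% and 14.3%, at -0.49. Tbx18, a transcription factor of the epicardium, went the other way, with 26.1% and 71.4% at 1.06. Wt1 was in 92.5% to 100% of cells in subclusters 0, 3 and 4 of both libraries.

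Fap, the fibroblast activation protein, is a surface protease and the member tied to activated fibroblasts as well as resting ones (ENSMUSG00000000392, GRCm39 chr2:62331286-62404419, minus strand). It passed the limit in no subcluster. Its shares were 2.1% and 3.1%, 6.7% and 4.3%, 5% and 0%, and 26.1% and 33.3% in subclusters 0, 3, 4 and 5, at log2 fold changes of 0.01, -0.03, -0.10 and -0.24. Only in subcluster 5 was it in more than 10% of cells, and the pseudocount of 1 holds fold changes of such low genes near 0.

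Pi16, a secreted peptidase inhibitor of adventitial fibroblasts in many organs, had the widest range of all (ENSMUSG00000024011, GRCm39 chr17:29536654-29549567, plus strand). In subclusters 0, 3 and 4 it was close between the libraries, at 37.9% and 34.4%, 26.7% and 26.1%, and 15% and 20% of cells, with log2 fold changes of 0.16, -0.02 and 0.12. In subcluster 5 it was found in 65.2% and 57.1% of cells at -2.40. The log2 ratio of those shares was -0.19, so the mean level differed far more than the share of cells with a count.

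Clec3b encodes tetranectin, a secreted plasminogen-binding lectin of quiescent fibroblasts (ENSMUSG00000025784, GRCm39 chr9:122979925-122987055, plus strand). It was the only one of the 10 that was lower by the limit in all 4 subclusters. Its shares were 95.2% and 81.2% in subcluster 0, at a log2 fold change of -0.74, and 70% and 52.2% in subcluster 3, at -1.19. In subcluster 4 they were 35% and 60% at -0.40, so the share was higher and the mean lower. In subcluster 5 they were 73.9% and 57.1%, at -1.95, and in cluster 5 as a whole 70.5% and 52.9%, at -0.99. Clec3b and Pdgfra thus parted within the same subclusters. The log2 fold change of Pdgfra exceeded that of Clec3b by 2.09, 1.95, 0.79 and 1.89 in subclusters 0, 3, 4 and 5. By the ratio of shares the gap was 1.11, 0.79, -0.85 and 0.26, so it turned in subcluster 4, where the library labelled depleted resolves steps of 10 percentage points.

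**Figure D3:**
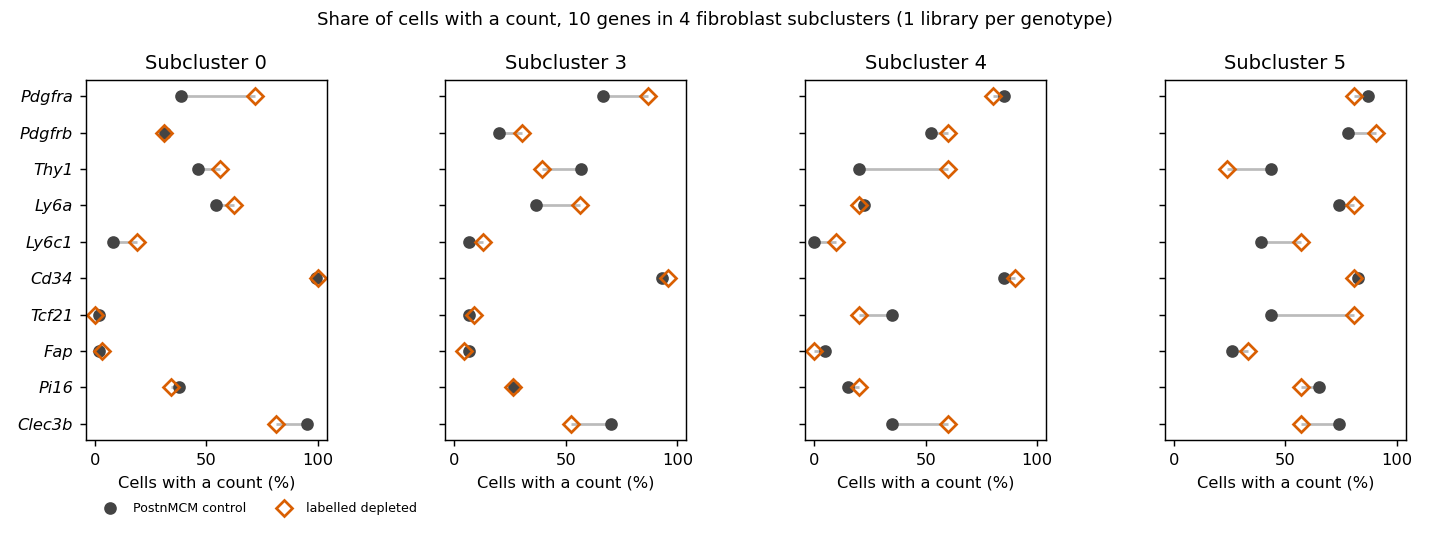
Share of cells with a count (horizontal axis, percent) for the 10 genes in fibroblast subclusters 0, 3, 4 and 5, with 1 library for each genotype and no error bars. Filled circles are the control library and open diamonds the library labelled depleted; the widest gaps are Thy1 in subcluster 4 (20% and 60%), Tcf21 in subcluster 5 (43.5% and 81%) and Pdgfra in subcluster 0 (38.6% and 71.9%). In subcluster 4 the library labelled depleted holds few cells and moves in steps of 10 percentage points.

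The mean and the share of cells gave the same direction for 30 of the 40 values and opposite directions for 10. Of the 20 values past the limit, 16 had the same direction in both and 4 did not, namely Pdgfra and Clec3b in subcluster 4 and Ly6a and Ly6c1 in subcluster 5. Among all genes past the limit with unequal shares, 6.3% to 7.52% had opposite directions in the 4 subclusters. By the shares over both libraries in the 4 subclusters, the genes with the pattern nearest to Pdgfra were Prnp, Prrc1 and Nktr, with summed differences of 56, 61.5 and 63.1 percentage points over 8 shares. Those nearest to Clec3b were Gprc5b, Fbxw2 and Arl4a, at 60.8, 67.5 and 67.6 percentage points. All of these shares come from the same 2 libraries, and these are descriptions of likeness alone.

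Promoter sequences are shown for Tcf21 and Pi16, which stood at the 2 ends of the fold changes in subcluster 5, and for Ly6c1. Among the genes searched, Ly6c1 was the only one whose upstream bases held a searched motif. They are the 250 bases before the annotated start from RefSeq, in build GRCm38.p6, which differs from the build of the files, read 5′ to 3′ on the strand of the gene. Of the 2 starts annotated for Ly6c1 the upstream one is shown. Capitals mark CAGCTG, an E-box of the type bound by TCF21.
Tcf21, chr10:22820144-22820393, minus strand: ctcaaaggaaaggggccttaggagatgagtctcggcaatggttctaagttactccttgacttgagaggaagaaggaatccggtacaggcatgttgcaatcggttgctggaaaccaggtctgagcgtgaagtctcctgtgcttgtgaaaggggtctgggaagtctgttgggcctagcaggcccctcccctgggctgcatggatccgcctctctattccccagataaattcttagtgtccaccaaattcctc
Pi16, chr17:29318632-29318881, plus strand: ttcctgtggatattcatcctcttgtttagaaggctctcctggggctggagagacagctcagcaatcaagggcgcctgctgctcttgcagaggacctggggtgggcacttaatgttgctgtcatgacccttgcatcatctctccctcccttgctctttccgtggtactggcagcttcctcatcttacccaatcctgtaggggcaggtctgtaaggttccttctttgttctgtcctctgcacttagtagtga
Ly6c1, chr15:75048838-75049087, minus strand: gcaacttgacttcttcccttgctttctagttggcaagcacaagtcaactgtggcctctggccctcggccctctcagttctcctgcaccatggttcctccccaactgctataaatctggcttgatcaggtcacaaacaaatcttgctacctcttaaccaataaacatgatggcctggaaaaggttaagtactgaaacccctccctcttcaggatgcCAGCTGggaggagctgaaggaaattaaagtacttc

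Promoter entries on chromosome 18, where Pdgfrb lies, were left out for the 10 genes but kept among all promoters. Of the 10 genes, 5 had an entry on another chromosome (Cd34, Pdgfra, Tcf21, Ly6c1 and Pi16). The windows searched on both strands ran from 250 bases before to 50 bases after the start. CAGCTG, whose reverse complement is itself, was in the windows of 2 of the 5, 35 bases before the start in Ly6c1 and 23 bases after it in Pi16, and in 16.3% of all 32851 promoters of the table. CATTCC, the core that TEAD factors bind, was in none of the 5 and in 14.7% of all promoters. No window held both motifs, so they do not overlap there, and a match or its absence describes the window alone.

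Another 20 resting fibroblast genes were counted in the same way, again from a list chosen with earlier results of these data known. In subclusters 0, 3 and 4, 1, 2 and 3 of its genes were lower and 5, 4 and 3 higher, with medians of 0.01, 0.06 and 0. All genes of those tables were lower in 6.37%, 9.68% and 13.3% and higher in 7.61%, 9.13% and 17%. In subcluster 5, 11 of the 20 were lower and 3 higher, with a median of -0.52, against 14.7% and 12.6% of all genes. Gsn, the actin-severing protein gelsolin, was found in 100% of cells of subcluster 5 in both libraries, at -2.35. Igfbp4, which binds insulin-like growth factors, went from 95.7% to 61.9% of cells, at -2.34, and Cd248, the surface protein endosialin, from 91.3% to 81%, at -1.71. In the remaining subclusters Gsn was at 0.15 to 0.44, Igfbp4 at -0.22 to 0.47 and Cd248 at -0.72 to 0.17.

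Of 18 genes of activated fibroblasts, 2, 4, 10 and 8 were lower and 6, 4, 1 and 4 higher in subclusters 0, 3, 4 and 5. All genes of these tables were lower in 6.37%, 9.68%, 13.3% and 14.7% and higher in 7.61%, 9.13%, 17% and 12.6%. Acta2, the smooth muscle actin of myofibroblasts, was in 47.8% and 76.2% of cells of subcluster 5, at 1.12, and Postn in 87% and 100%, at 1.003. Cthrc1, a secreted protein of scar fibroblasts, was in 70% and 10% of cells of subcluster 4, at -3.05. In subcluster 5 the list went both ways: Lox, which cross-links collagen, stood at -1.41 and Fbn1, the microfibril protein fibrillin, at -1.03, with both in 100% of cells of each library.

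Immune transcripts also moved with the libraries inside the fibroblast subclusters. The summed shares of 5 neutrophil markers went from 255% to 103%, 240% to 126%, 240% to 120% and 209% to 143% in subclusters 0, 3, 4 and 5, with S100a8 in 91% and 43.8% of cells of subcluster 0. Those of 6 macrophage markers went from 320% to 200%, 303% to 256%, 312.5% to 240% and 252% to 181%. In cluster 5 as a whole, normalized separately, S100a8 was in 32.6% and 5.9% of cells, so its subcluster shares do not carry over to that normalization. The deposited fold change did not follow the shares throughout. By it 4 macrophage markers were higher and 0 lower in subcluster 3, with a median of 0.999, and 4 higher and 1 lower in subcluster 5, with a median of 0.60. Of the neutrophil markers 3 were higher and 0 lower in subcluster 5, with a median of 0.32, while in subclusters 0, 3 and 4, 5, 4 and 4 were lower. Over all genes 6.37%, 9.68%, 13.3% and 14.7% were lower and 7.61%, 9.13%, 17% and 12.6% higher in subclusters 0, 3, 4 and 5. Those of 4 B cell markers went from 11.8% to 15.6%, 10% to 13%, 15% to 20% and 21.6% to 9.6%. Those of 4 cardiomyocyte markers went from 19.9% to 3.1%, 23.3% to 4.3%, 32.5% to 40% and 17.3% to 9.6%. Their part in the values of the 10 genes was not tested.

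Across the 18 clusters of all interstitial cells, the tables list a gene only past 2 limits, 0.25 in size and 25% of the cells of 1 of the libraries. A gene that is not listed has no value there. The 10 genes were listed 14 times of 180 possible (7.78%), 6 times lower and 8 times higher, against 5.09% of all 303228 gene and cluster pairs. Cluster 5, the fibroblasts, gave 4 of these listings, with Pdgfra, Pdgfrb and Ly6a higher and Clec3b lower. Of all 16846 genes of the object, 2.04% were listed lower and 1.56% higher in cluster 5. Tcf21, Cd34 and Fap were listed in no cluster, and 10 of the 18 cluster tables listed none of the 10 genes. In cluster 5 the second resting list had 3 genes lower and 4 higher, while 6 of 11 epicardial genes were listed, all lower. Within subclusters 0, 3 and 4 the epicardial list had 3, 5 and 0 genes lower and 3, 4 and 4 higher, against 6.37%, 9.68% and 13.3% of all genes lower and 7.61%, 9.13% and 17% higher, and the mix of subclusters in cluster 5 was not tested.

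**Figure D4:**
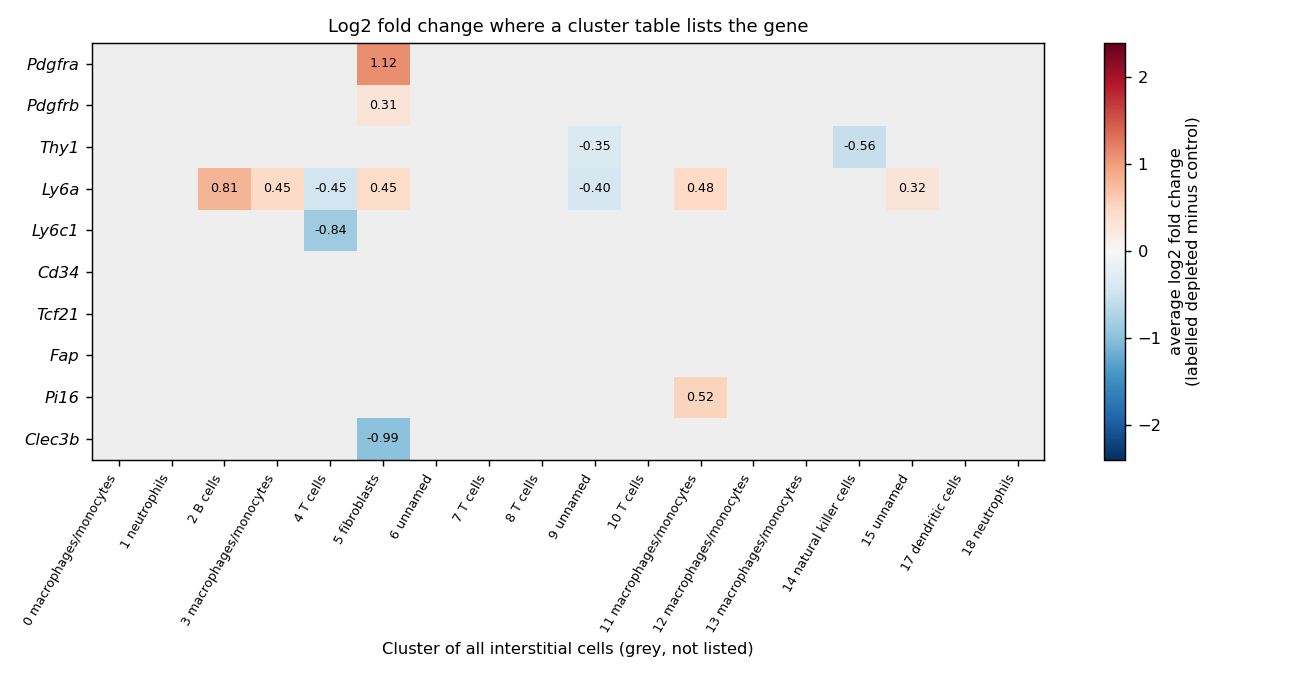
Deposited average log2 fold change, library labelled depleted minus control, wherever 1 of the 18 cluster tables (columns, with the cell type the study named) lists 1 of the 10 genes (rows); grey means not listed. The 14 listings fall in 8 clusters, and Ly6a holds 7 of them.

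Outside fibroblasts, Ly6a was the gene most often listed, with both directions. In B cells (cluster 2) it was found in 39.2% and 74.5% of cells, at 0.81. In macrophages and monocytes it was in 35.8% and 42% of cells of cluster 3, at 0.45, and in 38.9% and 33.3% of cluster 11, at 0.48. In T cells (cluster 4) it was in 46.5% and 31.7%, at -0.45, in the unnamed cluster 9 in 35.3% and 22.2%, at -0.40, and in the unnamed cluster 15 in 90.6% and 100%, at 0.32. By mean, Ly6a was thus higher in clusters 2, 3, 11 and 15 and lower in clusters 4 and 9, while its share in cluster 11 was lower. The macrophage and monocyte clusters 0, 12 and 13 did not list it. Its relative Ly6e was listed in 7 clusters, 5 times higher and 2 times lower.

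The other listings outside fibroblasts were few. Ly6c1, which memory T cells can also carry, was in 35.2% and 7.8% of cells of T cell cluster 4, at -0.84, where its near-copy Ly6c2 was not listed. Thy1 was in 32.9% and 15.4% of natural killer cells (cluster 14), at -0.56, and in 100% and 93.7% of cluster 9, at -0.35. Pi16 was in 23.6% and 31.2% of cells of cluster 11, at 0.52. Of 5 fibroblast markers none was listed in cluster 11, while in the same cluster the neutrophil gene S100a8 went from 59.7% to 27.1% of cells, at -2.99. Transcripts of fibroblasts were also counted in cells not expected to make them: the collagen gene Col3a1 was in 41.5% and 26% of cells of macrophage cluster 3 and in 26.6% and 11.5% of natural killer cells. Depths in these clusters are unknown, and the part of free RNA in the Pi16 and Ly6 shares outside fibroblasts was not tested.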

How the data were processed

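Interstitial cells were captured with 10x Chromium 3′ chemistry in 2 libraries, 1 for each genotype. Per the study's methods and the submitters' processing notes, the authors aligned reads with Cell Ranger 6.1.1 to GRCm39 with reporter sequences added, joined the libraries without equalising depth, normalized with SCTransform in Seurat while regressing out the mitochondrial share, clustered the cells and clustered fibroblasts again. No doublet caller is named. Clusters were named by the study, and 3 of them, cluster 16 and subclusters 1 and 2 of the fibroblasts, are not analysed here. The study's methods and the labels give different days of collection, and the day of the labels is printed.

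The authors' deposited tables compare the libraries within each of 18 clusters and 4 subclusters. The deposited log2 fold change has a pseudocount of 1. The deposited fraction of cells with a corrected count above 0 is printed as a percent. The deposited p-value columns, computed by the authors over cells, were used only to read how many genes each adjustment covered (16846 in clusters, 15059 in subclusters). Because cells of 1 library are not replicates, no p-value is printed and no error could be given. Subclusters and clusters were normalized separately, and levels were not compared between them.

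The 10 genes and the related lists were chosen with earlier results of these data known. Rows were matched by symbol in all 22 tables. A gene was counted lower or higher at 0.25 or more in size, beside the share of all genes past the same limit. Of each related list, up to 3 genes with the largest mean absolute log2 fold change and a mean share of at least 10% were picked to be named. Not all of those picked are printed, and Tnc, Msln and S100a9 are among those left out. Pecam1, Cdh5, Rgs5, Ly6c2, Col1a1, Dpt, Meox1, Col3a1, Lum, Dpp4, Tbx18, Notch3, Esam, Lox, Fbn1, Col8a1, Upk3b, Dmkn, Postn, Cd3e and the targeted genes were named besides, after their values were seen. Alternatives were size limits of 0.5 and 0.1, a mean share of at least 10%, centring, and the log2 ratio of shares with 1 percentage point added. Cd34, Pdgfra, Pi16, Tcf21 and Ly6a overlap annotated genes on the opposite strand, but Cell Ranger was run with its default settings, which count reads in sense to a gene. Gene positions and transcripts came from GENCODE and promoters from RefSeq. The counting of genes was tested on simulated tables. Computations used Python 3.11.15, pandas 2.3.3, NumPy 2.4.6 and Biopython 1.88.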

Additional observations from a re-analysis of the deposited data

Results flagged for a closer look

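Ly6a had opposite directions between fibroblast subclusters by the deposited log2 fold change, at 0.70 in subcluster 3 and -0.86 in subcluster 5. It was picked out because both values are at least 0.5 in size and of opposite sign, and the difference between the subclusters was not tested. By the share of cells both were higher in the library labelled depleted, with 36.7% of control cells against 56.5% in subcluster 3 and 73.9% against 81% in subcluster 5.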

How the results depend on the processing

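No paired analysis was possible because there was a single library for each genotype. With the log2 ratio of shares in place of the deposited fold change, 10 of the 40 single values changed sign, 4 of them past 0.25 in size: Pdgfra to -0.086 and Clec3b to 0.76 in subcluster 4, and Ly6a to 0.13 and Ly6c1 to 0.53 in subcluster 5. The median of the 10 genes in subcluster 5 changed sign to 0.051, and the gap between Pdgfra and Clec3b went to 1.11, 0.79, -0.85 and 0.26 in subclusters 0, 3, 4 and 5. By that ratio 3 genes were lower and 5 higher in subcluster 3, 2 lower in subcluster 4, and 2 lower and 3 higher in subcluster 5. A size limit of 0.5 left 1 gene higher in subcluster 0, 0 lower in subcluster 4 and 6 of the 14 cluster listings. A limit of 0.1 gave 2 lower in each of subclusters 0, 3 and 4 and 6 higher in subcluster 4. Asking also for shares 10 percentage points apart in the same direction left 9 listings. Without Ly6a and Ly6c1 the medians of subclusters 0, 3 and 5 became -0.0073, -0.026 and -0.27, in place of 0.09, 0.0092 and -0.46. Cell numbers and depth are not stated, and values in subclusters 4 and 5 of the library labelled depleted have the coarsest resolution.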
